A study of Mus musculus with 6 samples.

Results

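MHC class I presentation genes were followed as 10 named genes, of 24391 gene rows in the count table and 23284 in the FPKM table. The members were taken by symbol, and all 10 were present in both tables. The study sequenced RNA of tumour-associated macrophages (TAMs, macrophages taken from a tumour) from colorectal tumours of BALB/C mice. Cells high for the surface protein CD11b and low for F4/80 (F4/80low) gave 2 libraries from CCL5-/- mice, which lack the chemokine gene Ccl5, and 2 from WT mice. Cells low for CD11b and high for F4/80 (F4/80hi) gave 1 library with the genotype label CCL5-/- and 1 with the label WT. Treatment, age and pooling of animals are not given in the labels, and the spread behind each p-value is that of these libraries alone, perhaps a technical one.

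Class I molecules show peptides from inside a cell to CD8+ T cells. The proteasome cuts proteins into peptides, and the subunits Psmb8 and Psmb9 replace constitutive ones in the immunoproteasome. The transporter Tap1/Tap2 moves peptides into the endoplasmic reticulum, where Erap1 trims them and tapasin (Tapbp) helps load them onto a heavy chain, H2-K1 or H2-D1, paired with beta-2 microglobulin (B2m). Nlrc5 is a transcriptional activator of these genes, and interferon gamma raises them in macrophages.

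Some libraries stood apart. Total counts ranged from 9280635 to 22411342, and Rn45s, the ribosomal RNA precursor, took 1.38% and 0.844% of counts in CCL5-/- and WT replicate 2, against 50% and 58.4% in CCL5-/- and WT replicate 1. The Wilson 95% intervals, for counting error only, were 1.3771 to 1.3875% and 0.84014 to 0.84772% in CCL5-/- and WT replicate 2, and 50.004 to 50.065% and 58.409 to 58.472% in CCL5-/- and WT replicate 1. The F4/80hi titles name the genotype opposite to the label. Ccl5 itself had 35 and 82 reads in the F4/80low CCL5-/- libraries, against 255 and 3976 in WT. In F4/80hi the library labelled CCL5-/- had 145 FPKM of Ccl5, against 15.7 FPKM in the library labelled WT, which goes against the labels. The FPKM ratio of the F4/80hi libraries also predicted how reads split between the F4/80low replicates 1, crosswise in genotype. The median chi-square was 0.332 over 6674 genes with 20 to 400 reads, below the 0.455 of independent reads, while the other 11 ordered library pairs gave 3.576 to 8.934. The F4/80hi values are therefore counted as the same 2 libraries as the F4/80low replicates 1, under their own labels. The gate of these libraries is thus in doubt, and a difference between gates cannot be told apart from one between replicate 2 and replicate 1; if the replicate 1 libraries are F4/80hi cells, the F4/80low genotype comparison mixes gates. Itgam, the CD11b gene, was at 144 and 180.4 CPM in CCL5-/- and WT replicate 2, against 580.4 and 598 CPM in CCL5-/- and WT replicate 1, and Adgre1, the F4/80 gene, at 35.3 and 51.8 CPM, against 53.7 and 35.6 CPM. Macrophage markers summed to between 5304 and 9612 CPM (reads scaled to library size, here with TMM factors for library composition) in the F4/80low libraries, 14 of 14 markers tested.

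The genotype comparison asked whether loss of Ccl5 altered this pathway in F4/80low TAMs. None of the 10 genes passed the test, in a fit where Ccl5 itself, with a log2 change of -4.64 (SE 0.69), had an edgeR adjusted p of 1.0. CCL5-/- and WT overlapped for each gene, and the genotype difference had opposite signs in the same-numbered pairs: all 10 genes were higher in CCL5-/- in the replicate 1 pair and lower in the replicate 2 pair. Scaled to library totals without Rn45s, Erap1 was not lower in the replicate 2 pair. For each gene but Erap1 the log2 change between replicate numbers was larger than that between genotypes. The values follow by role in the pathway.

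**Figure D1:**
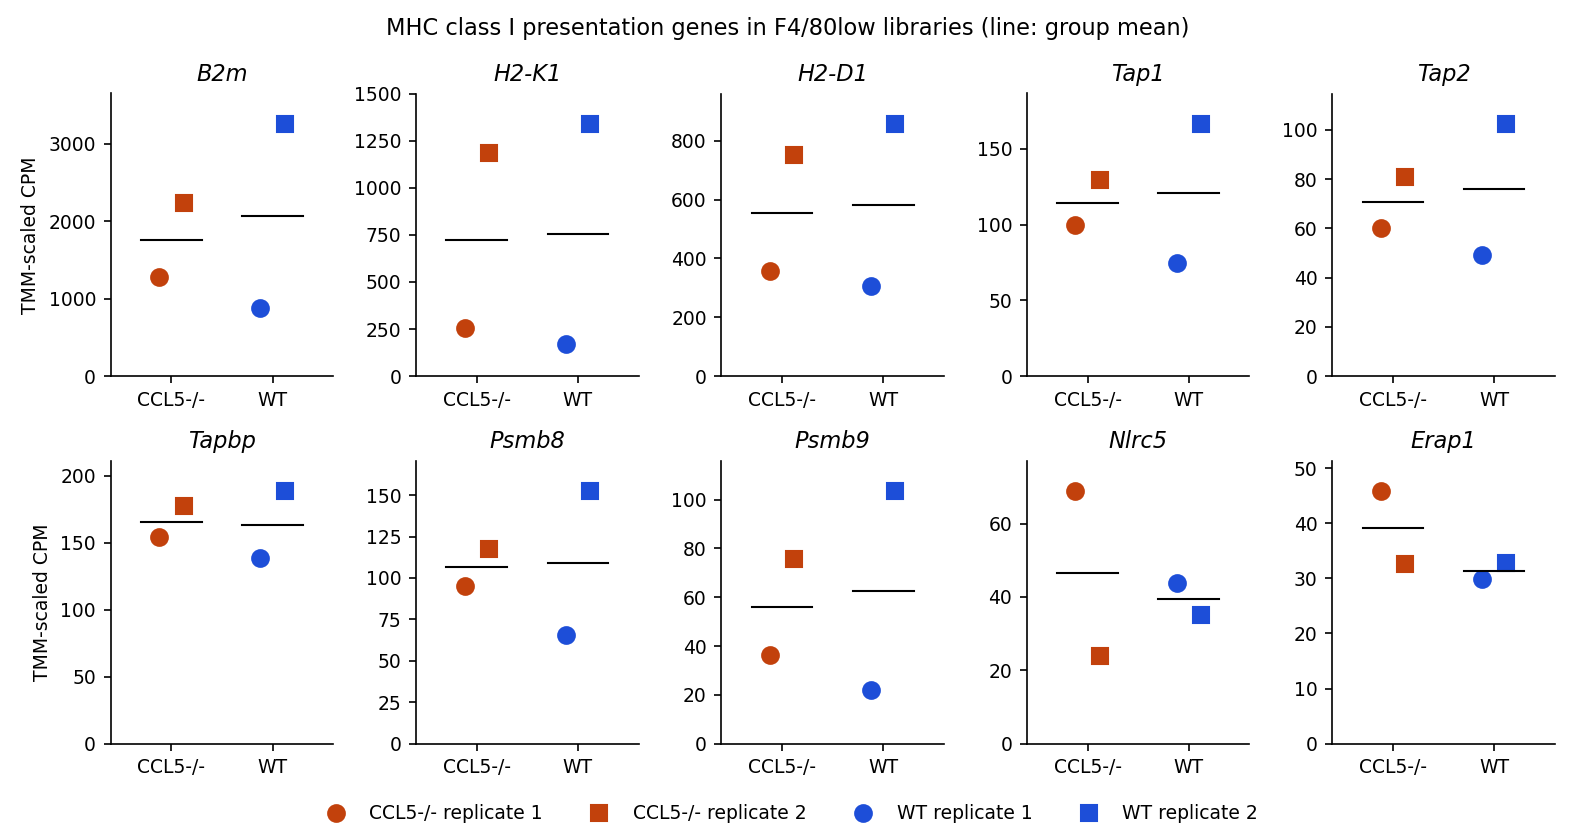
TMM-scaled CPM of each gene (vertical axis, linear from 0) in the F4/80low libraries, CCL5-/- left and WT right. Circles are replicate 1, squares replicate 2 and lines the mean of the 2 libraries. For 8 genes WT replicate 1 is lowest and WT replicate 2 highest, with both CCL5-/- libraries between them.

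The light chain and the heavy chains carried most of the reads. B2m, on chromosome 2 (122147686 to 122153083, GRCm38, plus strand), was at 1274 and 2229 CPM in CCL5-/- replicates 1 and 2, against 884 and 3256 CPM in WT. The CCL5-/- values lay inside the range of the WT values. The mean was 1752 ± 675 CPM in CCL5-/- and 2070.0 ± 1677 CPM in WT (SD, n = 2 each). H2-K1 (chromosome 17, 33996017 to 34000347, minus strand) was at 257 and 1186 CPM in CCL5-/-, against 169 and 1339.8 CPM in WT. Both replicates 2 were several times above both replicates 1, whatever the genotype. H2-D1 (chromosome 17, 35262730 to 35267499, plus strand) had the same split, with 357 and 752 CPM in CCL5-/- and 306 and 857 CPM in WT. The log2 genotype changes of B2m, H2-K1 and H2-D1 were -0.24 (SE 0.79), -0.06 (SE 1.15) and -0.07 (SE 0.70), none of which passed in edgeR (adjusted p = 1.0 for each).

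The heavy chain values may depend on how reads of genes that share sequence were placed, which was not tested. BALB/C mice carry the H2 d haplotype, while the reference genome is that of C57BL/6J, with the b haplotype, and class I heavy chains are highly polymorphic. Of the 50-base stretches in the longest coding transcript (GENCODE M21), 8.79% in H2-K1 and 14.3% in H2-D1 also occurred in another gene. The share was 0% in B2m, Psmb8, Psmb9, Nlrc5 and Erap1. Of the 138 such stretches of H2-K1, 109 occurred in H2-D1, 72 in H2-Q1 and 58 in H2-T23. For H2-D1 the leading other genes were H2-Q1, H2-Q7 and H2-Q6. Tap1 and Tap2 shared 0.861% and 0.737% of their stretches, with each other, and Tapbp shared 2.00%. H2-K1 reads per H2-D1 read were 1.58 and 1.56 in CCL5-/- and WT replicate 2, against 0.72 and 0.552 in CCL5-/- and WT replicate 1, so the share of the heavy chain reads given to H2-K1 split by replicate number. H2-Q4 reads per H2-D1 read stayed between 0.693 and 0.8 in all 4 libraries. Scaled to exon length, H2-K1 was at 0.914 and 0.701 of the H2-D1 level in the counts of CCL5-/- and WT replicate 1. In the FPKM table, made from what count as the same libraries, it was at 0.07 of it in the library labelled CCL5-/- and 0.0671 in the one labelled WT. The level of H2-K1 relative to H2-D1 therefore differed far more between the deposited tables than between genotypes within either, and the cause was not tested.

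The promoters of B2m, H2-K1 and H2-D1 are shown because these genes carried most of the members' reads. The RefSeq sequence (GRCm38.p6) is that of the 250 bases before the start site, and its bearing on the levels was not tested. Capitals mark matches on either strand to the enhancer A core GGGATTCCC, the kappa B core GGANTTTCC, the core of the interferon-stimulated response element AAANNGAAA, the gamma-activated site TTCNNNGAA and the Y box CCAAT, with N for any base. B2m lies at chr2:122147437-122147686 on the plus strand, H2-K1 at chr17:34000348-34000597 on the minus strand and H2-D1 at chr17:35262844-35263093 on the plus strand. The H2-D1 window lies inside the GENCODE gene span printed above, since the RefSeq start site is farther in.
B2m: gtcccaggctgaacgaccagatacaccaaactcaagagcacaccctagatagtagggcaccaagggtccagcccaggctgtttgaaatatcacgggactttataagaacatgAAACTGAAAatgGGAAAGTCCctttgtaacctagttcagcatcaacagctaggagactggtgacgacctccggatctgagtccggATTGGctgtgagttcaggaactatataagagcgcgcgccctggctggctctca
H2-K1: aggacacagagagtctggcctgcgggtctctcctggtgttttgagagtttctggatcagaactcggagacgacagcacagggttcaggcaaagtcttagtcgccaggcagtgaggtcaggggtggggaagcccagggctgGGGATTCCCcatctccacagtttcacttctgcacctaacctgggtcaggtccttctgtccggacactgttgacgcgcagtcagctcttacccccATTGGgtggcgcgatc
H2-D1: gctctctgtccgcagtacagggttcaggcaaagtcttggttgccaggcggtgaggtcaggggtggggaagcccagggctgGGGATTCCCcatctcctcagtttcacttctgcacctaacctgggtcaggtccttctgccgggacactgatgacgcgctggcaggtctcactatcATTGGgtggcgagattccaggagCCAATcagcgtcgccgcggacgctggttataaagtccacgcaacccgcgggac
B2m held the kappa B core, the response element core and 1 Y box. H2-K1 and H2-D1 each held the enhancer A core, which 99 of 32851 RefSeq promoters of this length held (0.301%), with 1 and 2 Y boxes. The response element was searched only as the core given above. The lack of a match in H2-K1 and H2-D1 therefore does not show that they lack an interferon-stimulated response element written with other letters. The shares over all promoters were 1.07% for the kappa B core, 9.37% for the response element core, 7.02% for the gamma-activated site and 33.8% for the Y box. Of the other members with a RefSeq promoter, Psmb8 held 1 gamma-activated site, Tapbp 2 Y boxes and Tap1 and Psmb9 the 1 they share, and Erap1 held none of these letters. The 250-base windows of H2-K1 and H2-D1 aligned over 190 bases, of which 174 were identical (91.6%). The enhancer A core began 110 bases before the window end in H2-K1 and 170 in H2-D1. The windows thus end at different points, and the second Y box of H2-D1, 53 bases before its end, has no counterpart within the H2-K1 window. The Y box counts of these windows therefore do not show a difference between the promoters. No 2 matches overlapped. A match is only a match of letters, and a missing match does not show that an element is absent.

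The peptide transporter genes had a narrower spread. Tap1 (chromosome 17, 34187553 to 34197225) was at 99.6 and 129 CPM in CCL5-/- replicates 1 and 2, against 74.9 and 166 CPM in WT. Tap2 (chromosome 17, 34203527 to 34216321) was at 60.3 and 80.7 CPM in CCL5-/-, against 49.1 and 102 CPM in WT. Both genes ran in the order WT replicate 1, CCL5-/- replicate 1, CCL5-/- replicate 2, WT replicate 2. Tap2 reads per Tap1 read lay between 0.606 and 0.656 in the 4 libraries, so the subunit genes kept nearly 1 ratio. Tapbp, for tapasin (chromosome 17, 33915899 to 33929292), had the narrowest range of the 10 relative to its level, with 154 and 177 CPM in CCL5-/- and 138 and 189 CPM in WT. The log2 genotype changes were -0.08 (SE 0.51) for Tap1, -0.11 (SE 0.49) for Tap2 and 0.02 (SE 0.41) for Tapbp.

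The immunoproteasome genes lie beside the transporter genes. Psmb9 (chromosome 17, 34181987 to 34187764, minus strand) starts head to head with Tap1, and the 225 bases between their RefSeq start sites (chr17:34187331-34187555, plus strand as printed, read towards Tap1) are shown because 1 stretch of DNA borders both genes. Capitals again mark the Y box, the only match found in it.
Tap1/Psmb9: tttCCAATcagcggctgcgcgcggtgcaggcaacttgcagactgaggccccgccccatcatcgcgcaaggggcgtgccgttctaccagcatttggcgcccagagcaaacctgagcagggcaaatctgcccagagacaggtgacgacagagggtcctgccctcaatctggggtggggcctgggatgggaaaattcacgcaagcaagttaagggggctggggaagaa
Psmb9 was at 36.3 and 75.5 CPM in CCL5-/- replicates 1 and 2, against 21.8 and 103 CPM in WT. Its neighbour did not keep step across replicate numbers: Psmb9 reads per Tap1 read were 0.584 and 0.622 in CCL5-/- and WT replicate 2, against 0.364 and 0.291 in CCL5-/- and WT replicate 1. The exon lengths of Psmb9 and Tap1 are 1352 and 2953 bases, and the replicate difference moved with length, as given below. Less the median of genes of like length, the log2 replicate changes were 1.07 for Psmb9 and 0.72 for Tap1. Psmb8 (chromosome 17, 34197721 to 34201454, plus strand) was at 95.3 and 118 CPM in CCL5-/-, against 65.6 and 152 CPM in WT. The log2 genotype changes were -0.17 (SE 0.79) for Psmb9 and -0.04 (SE 0.52) for Psmb8. Each subunit takes the place of a constitutive one, Psmb8 of Psmb5, Psmb9 of Psmb6 and Psmb10 of Psmb7. Psmb8 reads per Psmb5 read were 3.64 and 3.37 in CCL5-/-, against 1.94 and 3.54 in WT, with WT replicate 1 alone low. Psmb9 reads per Psmb6 read were 0.513 and 0.859 in CCL5-/-, against 0.277 and 0.867 in WT. Psmb10 reads per Psmb7 read ranged only from 0.35 to 0.449.

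The activator gene Nlrc5 and the gene of the trimming enzyme Erap1 did not share the order of the other 8. Nlrc5 (chromosome 8, 94434356 to 94527272) was at 68.8 and 24.02 CPM in CCL5-/- replicates 1 and 2, against 43.8 and 35.2 CPM in WT, so that CCL5-/- held both the highest and the lowest value. Erap1 (chromosome 13, 74639568 to 74693201) was at 45.8 and 32.6 CPM in CCL5-/-, against 29.9 and 32.9 CPM in WT, with CCL5-/- replicate 1 alone above the rest. Their log2 genotype changes were 0.23 (SE 0.57) and 0.32 (SE 0.37).

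Across the 12710 genes tested, edgeR (quasi-likelihood test, Benjamini-Hochberg adjusted p under 0.05) called 0 genes between CCL5-/- and WT, 0% of those tested, and 0 of the 10 members. Of the members, 0 had an unadjusted p under 0.05, and 41 of all genes did. DESeq2 called 0 members and 1 gene (0.00787%), Ccl5, and limma-voom 0 of both. No member passed in the authors' deposited table, with log2 changes from -0.09 to 0.19 and a lowest unadjusted p of 0.501. Ccl5 passed there (authors' adjusted p = 2.6e-05), with a log2 change of -1.68 (SE 0.28). In edgeR and DESeq2 here it was -4.64 and -4.63, so the authors' changes are not on the scale of those given here. With a term for replicate number edgeR called 10 genes (0.0787%), 0 of them members, whose log2 changes then ran from -0.04 to 0.29 with SE from 0.23 to 0.31. The members' SE without the term ran from 0.37 to 1.15, and since Ccl5 did not pass in that fit either, a count of 0 does not show that the members were alike in CCL5-/- and WT. The median log2 change of the members was -0.07, against -0.01 over all genes tested, and 7 of 10 were below 0, but 2 of 10 with library totals without Rn45s and 0 of 10 with limma-voom. This direction rested on single libraries: the median was 0.15 without CCL5-/- replicate 1, -0.31 without CCL5-/- replicate 2, -0.52 without WT replicate 1 and 0.655 without WT replicate 2.

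Within the same-numbered pairs the genotype difference turned round. In the replicate 1 pair the log2 changes, CCL5-/- over WT, ran from 0.15 (Tapbp) to 0.73 (Psmb9), with a median of 0.53, against 0.01 over all genes. In the replicate 2 pair they ran from -0.55 (Nlrc5, with B2m also at -0.55) to -0.01 (Erap1), with a median of -0.35, against -0.02 over all genes. All 10 genes combined a higher level in the first pair with a lower one in the second, a combination found in 25.8% of all genes tested. With library totals without Rn45s 9 of 10 had it, all but Erap1, and the medians were 0.653 and -0.27, against 0.12 and 0.05 over all genes. With 1 library per genotype in each pair the difference between pairs has no test. Genotypes did not overlap for 0 of 10 members, which the signs in the 2 pairs fix in advance, so it is no further result. Over all genes the share without overlap was 16.6%. For 8 members the order was WT replicate 1, CCL5-/- replicate 1, CCL5-/- replicate 2, WT replicate 2, an order held by 10.2% of all genes.

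**Figure D2:**
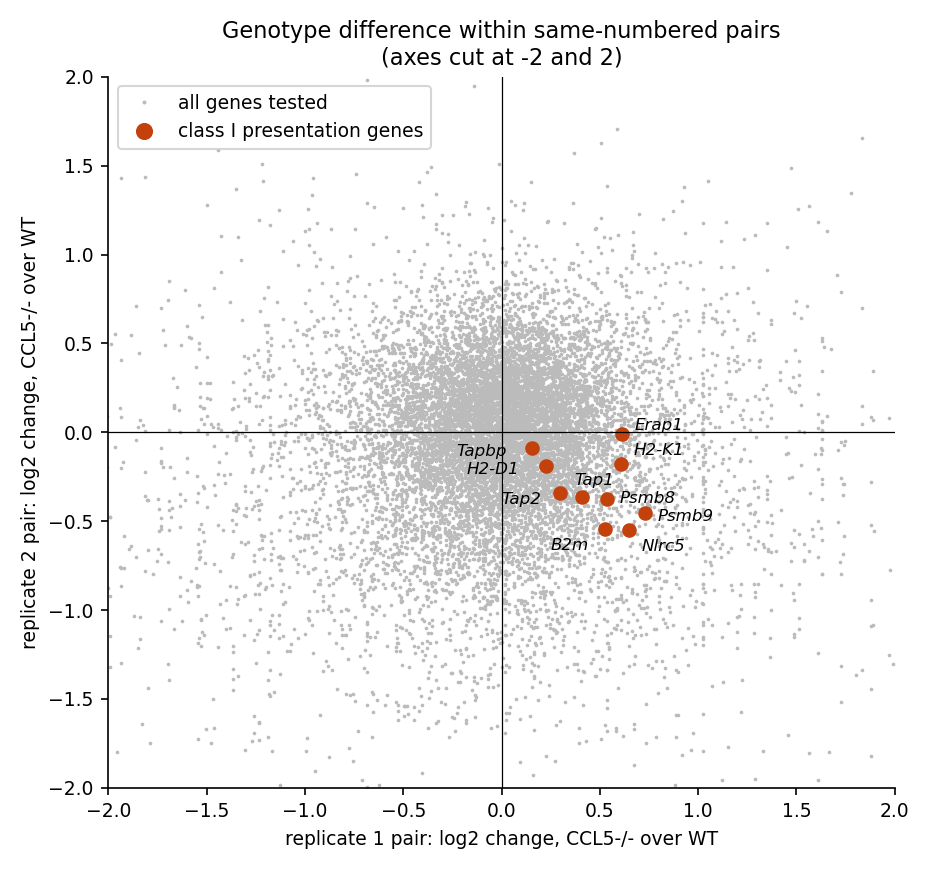
Log2 change, CCL5-/- over WT, in the replicate 1 pair (horizontal) and the replicate 2 pair (vertical), with all genes tested in grey and the class I presentation genes in orange. All 10 class I genes lie in the lower right part, between 0.15 and 0.73 across and between -0.55 and -0.01 down.

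Markers of T and NK cells mostly shared the signs of the members in the 2 pairs, but their sum did not share the members' order over the libraries. T and NK cell markers summed to 208 and 192 CPM in CCL5-/- replicates 1 and 2, against 123 and 432 CPM in WT, and 12 of 13 tested were higher in CCL5-/- in the first pair and lower in the second. The members summed to 2449 and 4804 CPM in CCL5-/-, against 1783 and 6234 CPM in WT. In edgeR, 1 of the 13 markers passed as higher in replicate 2, against 7 of the 10 members and 13.9% of all genes. The change was above 0 for 9 of the 13 markers and 8 of the 10 members. Passing depends on the level and spread of each gene, so these counts do not set the lists apart. Macrophage markers summed to 6344 and 6079 CPM in CCL5-/-, against 5304 and 9612 CPM in WT, and 8 of 14 had the same sign combination. Ifng, the interferon gamma gene, was at 1.86 and 4.19 CPM in CCL5-/-, against 1.72 and 10.7 CPM in WT. These are low levels, and its log2 change in the replicate 1 pair was only 0.11. Over the 4 libraries Ifng nevertheless ran in the same order as 8 of the 10 members. With genotype as a term, Ifng rose by 1.87 on the log2 scale from replicate 1 to 2 (edgeR adjusted p = 0.0051). Its part in the class I pattern was not tested. Ifnb1, a type I interferon, was at 7.79 and 4.08 CPM in CCL5-/-, against 7.90 and 17.5 CPM in WT, and 2 of 6 interferon ligand genes passed the filter on low counts. B cell markers, with 2 of 6 tested, summed to 7.09 and 16.6 CPM in CCL5-/-, against 4.64 and 87.5 CPM in WT. Neutrophil markers summed to 776 and 347 CPM in CCL5-/-, against 3785 and 600.2 CPM in WT, and 0 of 11 had that combination of signs. The summed levels ran from 49.3 to 76.3 CPM for dendritic cell markers, from 102 to 182 CPM for epithelial markers and from 716 to 1049 CPM for endothelial and fibroblast markers, and 1 of 7, 0 of 6 and 0 of 10 of these markers had the combination. No marker of these lists in the table was at 0 in all 4 libraries. In these bulk libraries fewer cells of a type and less RNA per cell cannot be told apart, and the part of the other cells in the class I pattern was not tested.

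**Figure D3:**
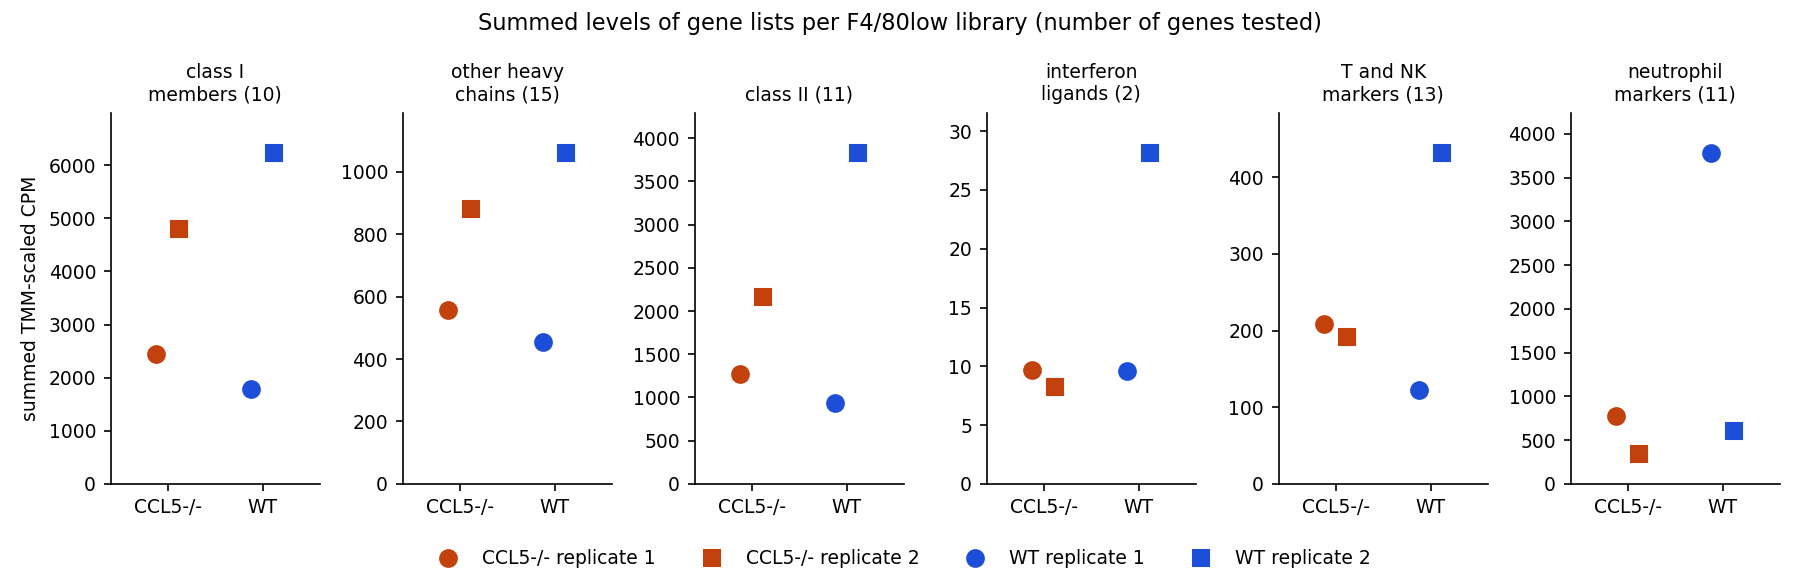
Summed TMM-scaled CPM of gene lists (vertical axis, linear from 0) in each F4/80low library, CCL5-/- left and WT right, circles for replicate 1 and squares for replicate 2. WT replicate 2 is highest in each list shown but the neutrophil markers, where WT replicate 1 is highest at 3785 CPM.

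Between replicate numbers the members did differ. In edgeR with genotype as a term, 8 of 10 passed between replicate 2 and replicate 1, 7 higher and 1 lower in replicate 2, where 31.8% of all genes passed (13.9% higher and 18% lower). H2-K1 rose by 2.60 on the log2 scale (SE 0.29, adjusted p = 1.9e-05), Psmb9 by 1.63, B2m by 1.34 and H2-D1 by 1.28 (adjusted p = 0.0012, 0.0050 and 0.0018). Tap1, Psmb8 and Tap2 rose by 0.76, 0.75 and 0.74 (adjusted p = 0.027, 0.034 and 0.026). Nlrc5 fell by 0.93 (adjusted p = 0.028), and Tapbp (0.32) and Erap1 (-0.18) did not pass. The log2 change was more positive within WT than within CCL5-/- for all 10 (less negative for Nlrc5, and above 0 only in WT for Erap1). This restates the opposite signs in the 2 pairs, which require it, and 6556 of all 12710 genes tested had it. The median log2 changes of the members were 0.40 in CCL5-/- and 1.18 in WT. In fits without the genotype term, H2-K1, H2-D1 and Psmb9 passed whichever library was left out. B2m did not pass without WT replicate 1 (adjusted p = 0.056). Tap1, Tap2 and Psmb8 did not pass without WT replicate 1 or without WT replicate 2 (adjusted p from 0.0906 to 0.3), nor Tap2 without CCL5-/- replicate 1 (adjusted p = 0.0614). Nlrc5 did not pass without CCL5-/- replicate 1 or 2 (adjusted p = 0.269 and 0.113). The count was thus 6, 7, 4 and 5 without CCL5-/- replicates 1 and 2 and WT replicates 1 and 2.

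The replicate difference moved with transcript length. Over 12261 genes with a GENCODE M21 exon length, Spearman's rho between length and the log2 change of replicate 2 over replicate 1 was -0.52, a description across genes that share the libraries. The median change was 0.56 in the shortest of 5 equal groups by length (up to 1793 bases) and -0.76 in the longest (5390 bases and more). B2m, with 860 exon bases, Psmb9 (1352), Psmb8 (1628) and H2-K1 (1655) lie in the shortest group, and Erap1 (5644) and Nlrc5 (8120) in the longest. The log2 change of Psmb8 was 0.19 above, and that of Nlrc5 0.17 below, the median of its length group. H2-K1 lay 2.04 above that of its group, Psmb9 1.07 and H2-D1 1.0. B2m lay 0.78 above, Tap1 0.72, Tap2 0.69, Erap1 0.57 and Tapbp 0.28. The median over the members was 0.71. The Rn45s share split the libraries in the same way, and the replicate number cannot be told apart from these features or from the gate.

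**Figure D4:**
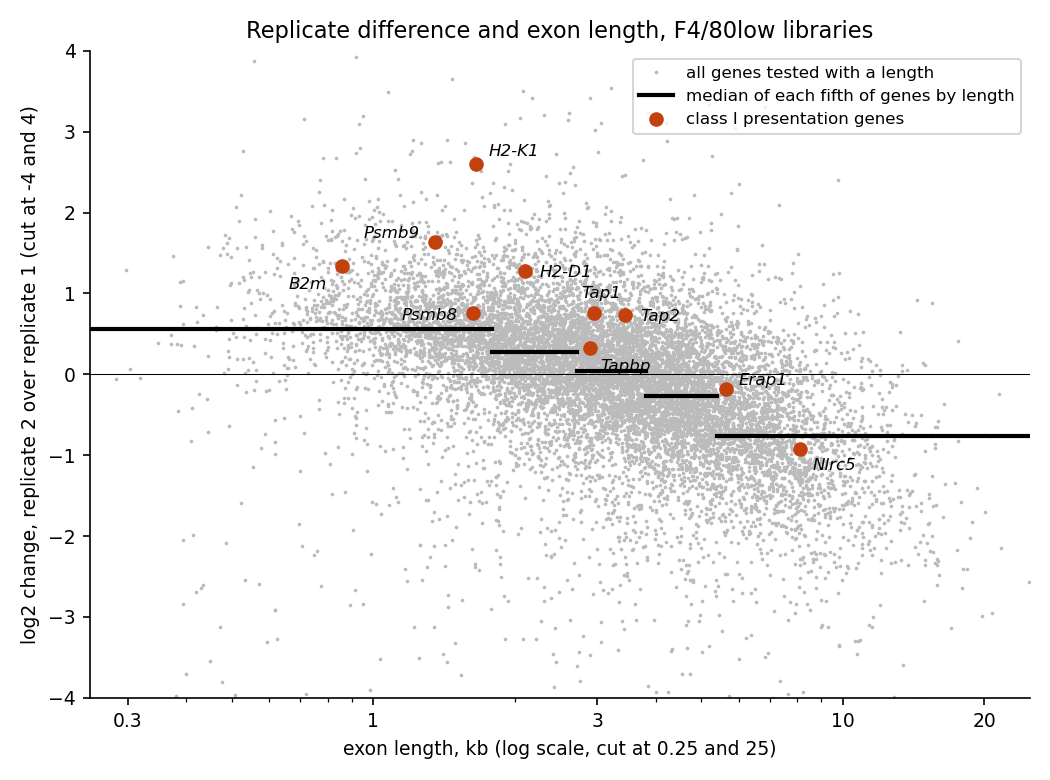
Log2 change of replicate 2 over replicate 1 in the F4/80low libraries (vertical) against exon length in kb (horizontal, log scale), all genes with a length in grey, class I presentation genes in orange and black bars for the median of each of 5 equal groups of genes by length. The bars step down from 0.56 to -0.76, and H2-K1 lies farthest above its bar among the 10 genes.

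Levels between genes were compared per kb of exon. In CPM per kb, B2m was the highest of the 10 in all 4 F4/80low libraries, with 1482 and 2592 in CCL5-/- and 1028 and 3786 in WT. H2-K1 and H2-D1 came next and changed places with the replicate number. Psmb8 and Tapbp changed places between libraries, so these neighbours do not differ beyond their spread. Psmb9 lay below Tap1 in both replicates 1 and above it in both replicates 2. In WT replicate 2 Psmb9 also lay above Tapbp. Tap2 was the 8th in each library, and Nlrc5 and Erap1 the lowest, between 2.96 and 8.47. In FPKM, which is scaled to length by the authors, B2m was at 1822 in the library labelled F4/80hi CCL5-/- and 2497 in the one labelled WT. H2-D1 followed with 515 and 595 FPKM, and Nlrc5 was the lowest with 6.81 and 9.85 FPKM. H2-K1 was only at 36.1 and 39.9 FPKM, between Tapbp and the transporter genes.

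**Figure D5:**
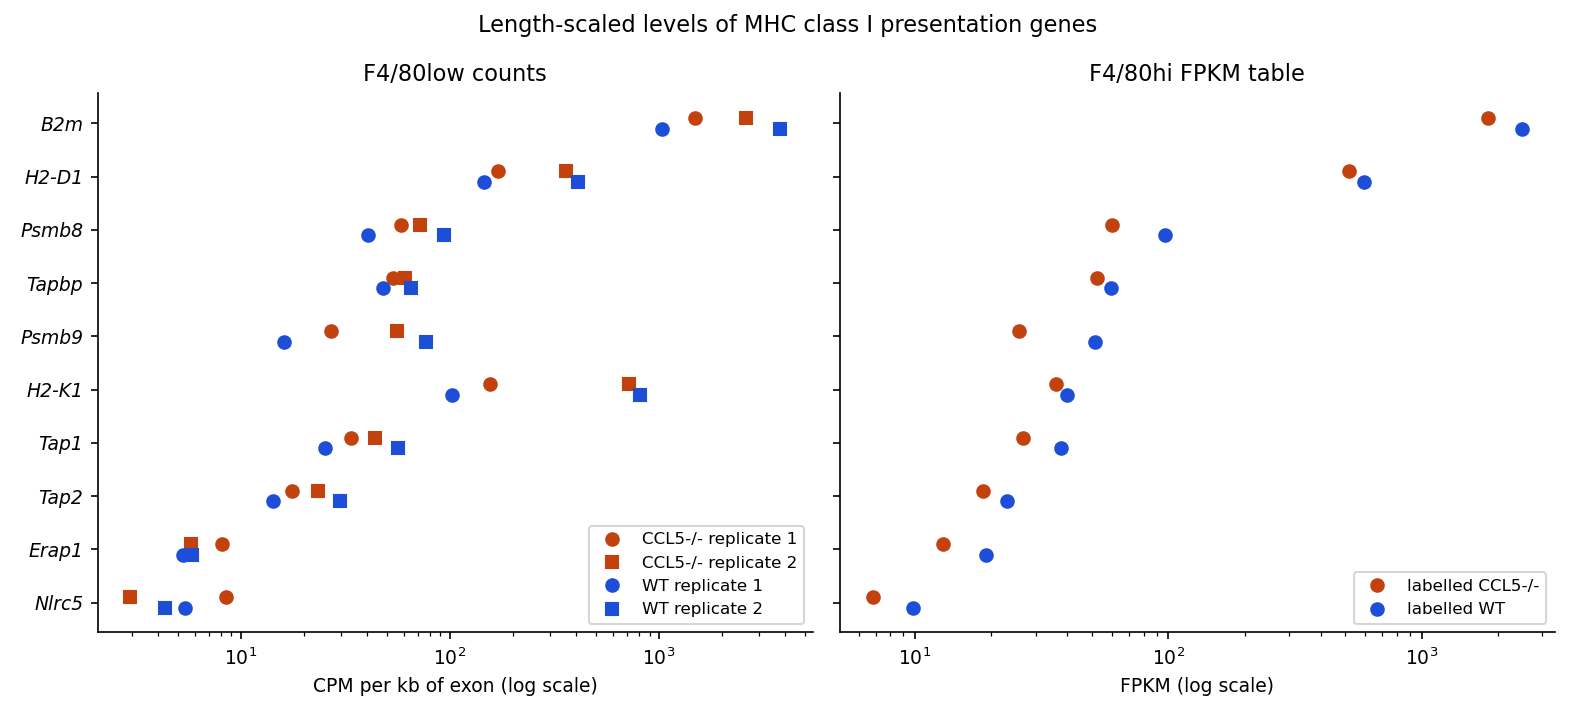
Length-scaled levels of the 10 genes on log axes, in CPM per kb of exon in the F4/80low libraries (left, CCL5-/- orange, WT blue, circles replicate 1, squares replicate 2) and in FPKM in the F4/80hi libraries (right), ordered by summed FPKM. B2m is highest in both panels, and H2-K1 sits beside H2-D1 on the left and far below it on the right.

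The F4/80hi comparison has no replicate check. All 10 members were lower in the library labelled CCL5-/- than in the one labelled WT, where 52.3% of 11670 genes were lower by any amount. The log2 changes, on the log2(FPKM + 1) scale, ran from -0.97 (Psmb9) to -0.14 (H2-K1), with a median of -0.465 against -0.02 over all genes. None of the 10 was 2-fold lower or higher, against 1.58% and 2.35% of genes. With the genotypes of the sample titles every sign turns round and the median is 0.465. Neutrophil markers summed to 17780 FPKM in the library labelled CCL5-/-, against 2936 FPKM in the one labelled WT, and T and NK cell markers to 155 FPKM, against 263 FPKM; their part in the result was not tested. These are values of the replicate 1 pair seen in another table: the crosswise FPKM change and the count change were 0.97 and 0.73 for Psmb9, 0.21 and 0.22 for H2-D1, and 0.14 and 0.61 for H2-K1, the member farthest apart.

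Other genes of the pathway were taken from lists by role, and in each list below edgeR called 0 genes between genotypes. Among 16 processing and loading genes the median log2 change was -0.06, and 9 of 16 had the sign combination of the members. Npepps, a cytosolic aminopeptidase, had -0.84 (SE 0.39), with 31.5 and 27.5 CPM in CCL5-/- and 64.2 and 41.4 CPM in WT, groups that do not overlap. Thop1, another peptidase, had 0.42 (SE 0.51), and the tapasin-related gene Tapbpl 0.30 (SE 0.50). The 14 constitutive proteasome subunits had a median of -0.16, with Psmb5 at -0.33, Psmb6 at -0.32 and Psma6 at -0.29. Of the 14, 10 passed as higher in replicate 2, against 13.9% of all genes. Of 27 other class I and class I-like heavy chains 15 passed the filter on low counts, with a median of -0.14. H2-K2 had -0.66 (SE 0.48), the CD1 gene Cd1d1 -0.63 and H2-Bl -0.38. H2-Q4, the most abundant of them, was at 286 and 521 CPM in CCL5-/-, against 219 and 609.98 CPM in WT, the order of H2-D1. Between replicate 2 and 1, 6 of the 15 passed as higher and 1 as lower, where 13.9% and 18% of all genes did.

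The genes that regulate the pathway had a median near that of all genes. Of 22 genes of class I transcription and interferon signalling the median log2 change was -0.03. In replicate 2, 4 passed as higher and 2 as lower, where 13.9% and 18% of all genes did. The interferon receptor gene Ifnar2 had -0.37 (SE 0.35), the kinase gene Jak2 -0.47 (SE 0.45) and the transcription factor gene Irf8 -0.37 (SE 0.45). Irf1, which binds interferon-stimulated response elements, was at 138 and 138 CPM in CCL5-/-, against 77.6 and 169 CPM in WT, so that WT held the lowest and the highest value. The class II presentation genes, which show peptides to CD4+ T cells, had a median of -0.47 over 11 tested, with H2-DMa at -0.43, the class II activator Ciita at -0.47 and H2-DMb2 at -0.38. Their sum was 1274 and 2159 CPM in CCL5-/-, against 930.4 and 3832 CPM in WT, and 7 of 11 had the sign combination seen in all 10 class I genes. Whether the lists differ was not tested.

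The profile of the members over the 4 libraries had close neighbours among other genes. By Euclidean distance between centred log2 CPM profiles, over 8311 genes outside the lists with a mean log2 CPM of at least 3, the nearest to the members' mean were Dcun1d1 (0.0241), Rsl1d1 (0.0372), Serpinb9b (0.0401), Rcn1 (0.0695) and Ptma (0.0739). Serpinb9b belongs to a family of protease inhibitors, and Ptma encodes prothymosin alpha. Among the members Tap1 (0.094) and Psmb8 (0.101) lay nearest to their mean, and H2-K1 and Nlrc5 farthest, both at 1.76.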

How the data were processed

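RNA of TAMs was analysed in 6 deposited samples, counted as 4 distinct libraries. The F4/80low table, deposited by the authors, holds raw read counts. The authors' deposited comparison gives log2 fold changes with standard errors and p-values with adjusted p-values. The F4/80hi table holds FPKM by the authors. Per the submitters' processing notes the tools included TopHat2 2.1.1 with Cufflinks 2.2.1, and STAR with HTSeq and DESeq2, in no stated order or role. The build behind each table and the use of strand in counting are not given in the labels, so overlapping genes cannot be separated. FPKM loci overlapped the GRCm38 gene for 99.06% of 20911 symbols shared with GENCODE M21, so GRCm38 coordinates are printed. The depth behind FPKM is unknown. Another 8 columns of per-library values (normalised counts and FPKM bounds) were not used.

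Genotype and gate follow the characteristics fields. Counts were fitted over all genes with edgeR 4.0.16 (filterByExpr, TMM, robust quasi-likelihood F test, two-sided) in R 4.3.3, with genotype alone, and with replicate number as a term because the ribosomal RNA share splits the libraries by it. P-values were adjusted over all 12710 genes tested. The standard error is the log2 change divided by the square root of F. Pair values are differences of log2 CPM (prior count 2). DESeq2 1.42.0, limma 3.58.1 (voom), other scalings and filters and leaving out each library were alternatives, and the scripts were tested on simulated counts. FPKM changes use log2(FPKM + 1) over genes with at least 1 FPKM in either library. Exon length is the union of GENCODE M21 basic exons. RefSeq promoters matched 8 of the 10 members.

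The members, lists and tests were chosen with earlier results of these data known. Genes named are the 10 members, Ccl5, up to 3 genes of each pathway list by smallest p in the genotype fit, and the 5 genes nearest in profile; some genes are not reported here. Ifng, Irf1, Itgam, Adgre1, H2-Q4, the constitutive subunits in ratios and Psmb10 were named after their values were seen.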

Additional observations from a re-analysis of the deposited data

How the results depend on the processing

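The members called between genotypes numbered 0 in each fit, which says nothing of stability, since Ccl5 itself had an adjusted p of 1.0 in most of the edgeR fits. The genes called numbered 1 with DESeq2 and 10 with the replicate block, and 0 to 4 without each library. The median log2 change of the members lay between -0.52 and 0.655 without each library. Same-numbered samples deviated together (correlation over genes 0.728), but with 2 pairs the numbers are only a label; the block moved the genes called as given. Signs of the small member changes turned under some settings, none past the threshold. With limma-voom B2m was 0.104, H2-K1 0.354, H2-D1 0.0866, Tap1 0.0772, Tap2 0.00319, Psmb8 0.137 and Psmb9 0.144, and with the replicate block H2-K1 was 0.211, H2-D1 0.016, Tap1 0.0145, Psmb8 0.0703 and Psmb9 0.0933. With library totals without Rn45s H2-K1 was 0.0335, H2-D1 0.034, Tap1 0.0391, Tap2 0.00759 and Psmb8 0.0844, where the median of all genes was 0.0884. The cause was not tested. Without each library the changes ran from -0.874 to 0.986 for B2m, -1.56 to 2.10 for H2-K1, -0.705 to 0.858 for H2-D1, -0.522 to 0.612 for Tap1, -0.52 to 0.522 for Tap2, -0.169 to 0.259 for Tapbp, -0.5 to 0.697 for Psmb8, -0.863 to 1.36 for Psmb9 and -0.668 to 0.801 for Nlrc5. Between replicate numbers 8 members were called under each scaling, filter and term tried, and 4 to 7 without each library (chosen after seeing the data), where Erap1 ran from -0.46 to 0.173. Library totals without Rn45s, also added, turned the replicate 2 pair value of Erap1 to above 0 and moved the median of all genes to -0.157 and that of the members to 0.597. The F4/80hi median was -0.477 with a pseudocount of 0.1 and 0.465 by the titles. Depth was lowest in WT replicate 1, with 3857011 reads outside Rn45s and 127 reads for Psmb9.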

Other observations

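Genes that recognise class I molecules or feed them from outside the cell gave further values. Of 14 receptor genes 10 passed the filter on low counts, edgeR called 0 between genotypes, and the median log2 change was -0.42, with the natural killer receptor genes Klra7 at -1.34 (SE 1.08) and Klrk1 at -0.86 (SE 0.70) and the related gene Klra2 at -0.46 (SE 0.53). Klrk1 was at 13.5 and 14.1 CPM in CCL5-/- replicates 1 and 2, against 9.28 and 40.2 CPM in WT, with WT replicate 2 alone high. Of 8 cross-presentation genes edgeR called 0 between genotypes, with a median of -0.13. In replicate 2, 3 passed as lower and 0 as higher, against 7 higher and 1 lower among the 10 class I genes. Over all genes tested 18% passed as lower and 13.9% as higher. Less the median of each gene's length group, the median replicate change was -0.79, against 0.71 in the class I genes. Whether these lists differ was not tested. The NADPH oxidase subunit gene Ncf4 had -0.50 (SE 0.42), and Rab27a, which regulates vesicle docking, had -0.95 (SE 0.90).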
